A study of Mus musculus with 6 samples.

Results

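Memory CD4 T cells were compared between mice whose T cells carry a conditional deletion of Furin and mice without it, on 1 array a side. These 2 arrays are 2 of the 6 in the series, chosen by their labels alone. The tested cells came from C57BL/6 mice of the genotype CD4 cre Fur flox/flox, called Furin cKO (conditional knockout) in the labels, and the control cells from C57BL/6 mice that carry Fur flox/flox without Cre. Both groups therefore share the loxP-flanked Fur alleles, and both were 10 to 11 weeks old. Cells were sorted by flow cytometry as positive for CD4 and CD44 and negative for CD62L, and went into RNA extraction without culture. Cre under the Cd4 promoter acts from the thymus onwards, so the deletion precedes every later stage of the T cell and is shared by the CD8 lineage. The sources used here do not say how many animals stand behind each array or whether they were pooled. The other 4 arrays hold activated naive cells and regulatory cells of the same genotypes, used below only for comparison. For both activated arrays an antibody at 5 micrograms per ml is recorded, and none for the memory or regulatory arrays.

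Furin is a serine protease of the Golgi and the cell surface that cuts precursor proteins behind pairs of basic residues. Its known substrates include pro-TGF-beta 1, Notch receptors, several integrin alpha chains and the receptors for insulin and IGF1. Memory CD4 cells that lack CD62L are the effector memory fraction, which patrols tissues, makes cytokines soon after a second encounter with antigen and in an unmanipulated mouse also holds innate-like T cells and regulatory cells of an activated phenotype. TGF-beta 1 restrains T cell division and type 1 differentiation and sustains regulatory T cells, which is why loss of furin in T cells has been studied for T cell tolerance.

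All values are array signals on the linear scale of MAS5, where each array has a trimmed mean of 500. A signal under 47.6, the pooled 40th percentile of the probe sets over the 6 arrays, was treated as a floor, and a fold against an array below it is a lower bound, written "at least". With 1 array per group there is no spread between animals and no test, so each fold describes these 2 arrays, and signals of different genes are not set against each other.

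The only Furin probe set did not show the loss its label names. It gave 2203 on the cKO-labelled array and 647 on the control array, 3.40-fold higher. The sources used here do not say where in the gene it lies. In the other pairs the same probe set read 468 on the cKO-labelled and 516 on the control array of activated cells, and 410.0 on the cKO-labelled and 547 on the control array of regulatory cells, log2 folds of -0.14 and -0.42. If it reads a stretch that the deletion leaves in place, it cannot check the deletion. The arrays are therefore called the cKO-labelled and the control array. Each direction below rests on these labels.

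Most genes differed little. Of 18193 genes with a probe set of their own, 14235 were measured, 11752 of them on both arrays, 1526 on the cKO-labelled array alone and 957 on the control array alone. At least 2-fold higher on the cKO-labelled array were 800 genes (5.62% of those measured), and at least 2-fold lower were 518 (3.64%). Bounds made up 338 of the higher and 146 of the lower genes. With the floor at the pooled 20th and 60th percentiles the higher genes numbered 2183 and 259, and the lower genes 1526 and 224. Among the 11752 genes the shares were 3.93% higher (462 genes) and 3.17% lower (372 genes). The log2 folds had a median of -0.01 and a scaled median absolute deviation of 0.47, and log2 signals correlated at 0.964 across the 11752 genes, which are not independent replicates. The share past 2-fold in either direction was 11.5% where the brighter array read 47.6 to 144.8, 17.8% at 144.8 to 500, 5.40% at 500 to 2000, 2.99% at 2000 to 8000 and 1.99% above 8000, so a 2-fold difference was rarer the brighter the gene, the dimmest range apart.

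**Figure D1:**
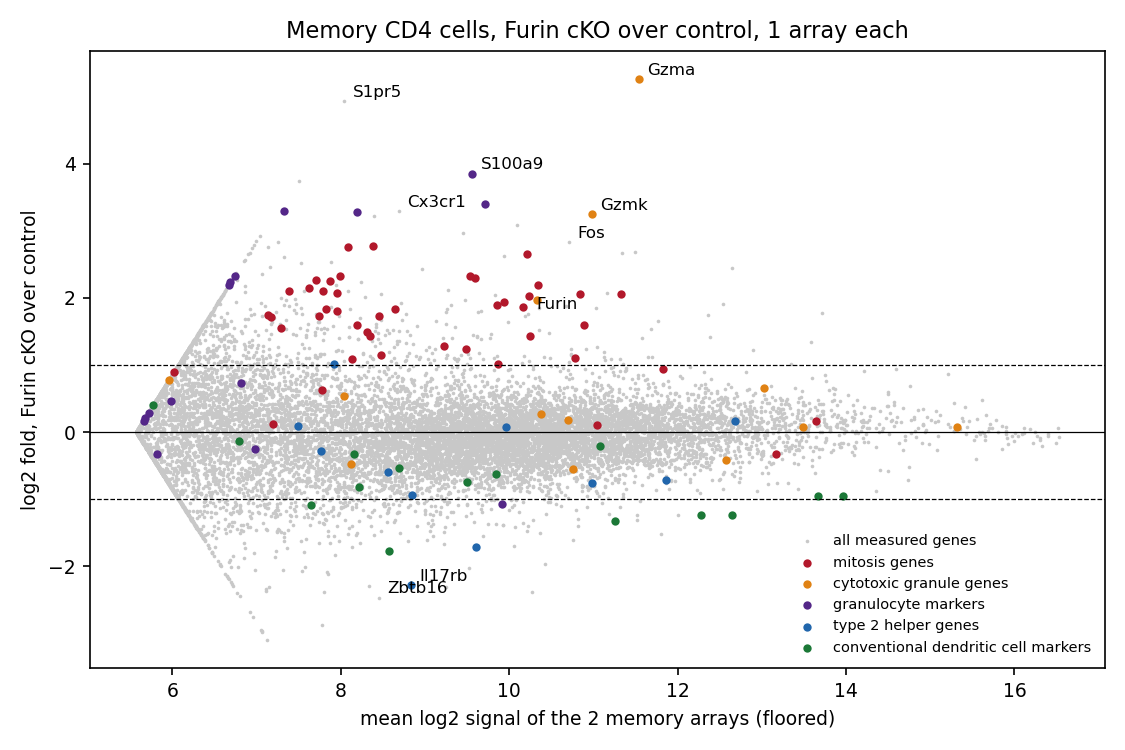
Log2 fold, cKO-labelled over control, against the mean log2 signal of both memory arrays for all 14235 measured genes, with 5 gene lists in colour and dashed lines at 2-fold. Mitosis genes form a band above the upper line, and Gzma stands at 5.27.

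Defining markers of CD4 T cells were bright on both arrays. Cd4, the co-receptor that defines the lineage, gave 3768 on the cKO-labelled array and 3488 on the control array, and the CD3 chain gene Cd3e gave 8419 on the cKO-labelled array and 8712 on the control array. Cd44, the adhesion receptor used in the sort, gave 7404 on the cKO-labelled array and 9134 on the control array. Of the 28 measured genes of the T cell receptor and its proximal signalling, 12 were higher and 16 lower, 0 of them by 2-fold, against 5.62% of all measured genes past 2-fold upward and 3.64% downward, with a median log2 fold of -0.06. Cd8a, which marks the other main T cell lineage, gave 264 on the cKO-labelled array and 216 on the control array, and Cd8b1 gave 433 on the cKO-labelled array and 854 on the control array. Xist, expressed from the inactive X chromosome, was bright on both arrays, at 34448 on the cKO-labelled array and 29365 on the control array, and the Y-linked genes Kdm5d and Eif2s3y were below the floor on both. Uty, also Y-linked, read 125 on the cKO-labelled array and 3.70, below the floor, on the control array, at least 2.62-fold higher.

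The 2 arrays also differed in technical measures. The ratio of 3' to 5' signal for beta-actin, which grows as RNA degrades or labelling shortens, was 1.563 on the cKO-labelled array and 1.925 on the control array, and that of Gapdh was 0.791 on the cKO-labelled array and 1.021 on the control array. The hybridisation spike bioB averaged 4915 on the cKO-labelled array and 6728 on the control array. The 3' probe set of 18S RNA read 10403.9 on the cKO-labelled array and 6432 on the control array. Probe sets that reached the floor made up 65.2% on the cKO-labelled array and 62.5% on the control array, so more dim genes counted as measured on the cKO-labelled side. The part of these measures in the differences below was not tested.

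Markers of cells outside the CD4 lineage differed in both directions, as the plot of marker lists shows. Genes of neutrophil granules were among the largest differences of the whole comparison. S100a9, a subunit of the antimicrobial protein calprotectin, gave 2868 on the cKO-labelled array and 198 on the control array, 14.4-fold higher. Its partner S100a8 was 10.6-fold higher (2736 cKO-labelled against 259 control), and the granule genes Camp and Ngp were 9.84-fold (501 cKO-labelled against 50.9 control) and 9.73-fold higher (910.1 cKO-labelled against 93.5 control). Of 15 measured granulocyte markers 12 were higher, 7 at or past 2-fold (46.7%, against 5.62%), and 3 lower, 1 of them at least 2-fold (Mmp9, 666 cKO-labelled against 1396 control). Only 9 of the 15 reached the floor on both arrays, with a median log2 fold of 0.73. The others reached it on the cKO-labelled array alone, so they could only count as higher. Among these Ltf, Lcn2 and Chil3 were past 2-fold, as bounds. The summed signal of the list was 9041 on the cKO-labelled array and 2516 on the control array. Cxcr2, Mmp8, Mcpt8, Cpa3 and Ms4a2 of this list were below the floor on both.

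B lineage markers were mixed. Igha, the heavy chain of IgA, gave 14979.8 on the cKO-labelled array and 2754 on the control array, 5.44-fold higher, and Jchain, which joins IgA into dimers, gave 3185 on the cKO-labelled array and 374 on the control array, 8.51-fold higher. Ms4a1 (CD20) was 4.32-fold higher (1285 cKO-labelled against 297 control), while Cd22 was 1.60-fold lower (756 cKO-labelled against 1212 control). The direction of Ighm was not settled, since the probe set used was 1.39-fold lower (9365 cKO-labelled against 12987 control) and 6 of its 7 other measured probe sets were higher. Of 17 measured B cell markers 11 were higher, 6 at least 2-fold (35.3%, against 5.62%), and 6 lower, 2 at least 2-fold (11.8%, against 3.64%). Their summed signal was 17921 on the cKO-labelled array and 21484 on the control array, which is the opposite direction to their median log2 fold of 0.67. Plasma cell markers summed to 27973 on the cKO-labelled array and 15023 on the control array, with 6 of 9 higher, 2 of them at least 2-fold (22.2%, against 5.62%).

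Dendritic cell genes were lower. The MHC class II genes H2-Ab1 and H2-Eb1 were 2.35-fold (3246 cKO-labelled against 7618 control) and 2.35-fold lower (4192 cKO-labelled against 9854 control), and Cd209a, a lectin of monocyte-derived and conventional dendritic cells, was 3.43-fold lower (206 cKO-labelled against 707 control). Of 15 conventional dendritic cell markers 14 were lower, 5 at least 2-fold (33.3%, against 3.64%), and their summed signal was 34458 on the cKO-labelled array and 68417 on the control array. Siglech and Tcf4, the surface lectin and the master regulator of plasmacytoid dendritic cells, were 2.65-fold (1111 cKO-labelled against 2943 control) and 2.59-fold lower (533 cKO-labelled against 1381 control), with 1 of 5 other measured Tcf4 probe sets higher. In that list 13 of 17 were lower, 6 at least 2-fold (35.3%, against 3.64%), with summed signals of 20879 on the cKO-labelled array and 32697 on the control array. Macrophage markers had 7 higher and 15 lower of 22, with 2 (9.09%) and 1 (4.55%) past 2-fold. The remaining lists of other cells (NK cells, CD8 and gamma delta T cells, erythroid cells and platelets, stroma, thymocytes) had at most 2 members past 2-fold in each direction. In bulk RNA, fewer cells of a type and less RNA per cell cannot be told apart, and the part of these cells in the results below was not tested.

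**Figure D2:**
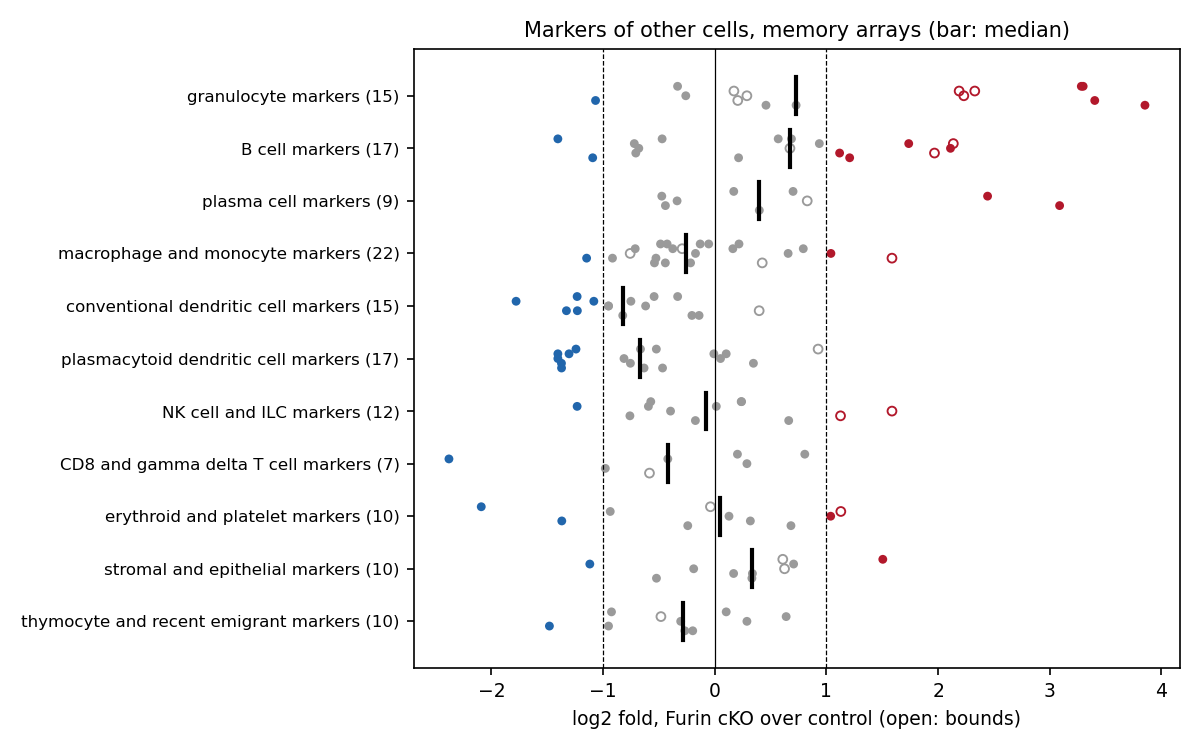
Log2 fold of each measured marker of other cell types, cKO-labelled over control memory array, 1 row per list with the number measured in brackets. Filled points were at or above the floor on both arrays, open points are bounds, red and blue mark 2-fold higher and lower, and black bars are medians. Granulocyte markers reach 3.85 upward, while 14 of 15 conventional dendritic cell markers lie below 0.

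Genes of dividing cells were higher almost throughout. Of 45 measured mitosis genes, 44 were higher on the cKO-labelled array, 38 of them (84.4%, against 5.62% of all measured genes) at least 2-fold, and 1 was lower (Smc4, 8219.5 cKO-labelled against 10333 control). Their median log2 fold was 1.74. The exceptions below 1.2-fold were Cdc25b, Foxm1 and Pttg1. Without probe sets named _x_at, _s_at or _a_at, Spc25 and Pttg1 stood at -0.16 and -1.10. Cdk1, the kinase that drives entry into mitosis, gave 1653 on the cKO-labelled array and 330.4 on the control array, 5.00-fold higher. Its cyclins Ccna2 and Ccnb2 were 3.66-fold (2194 cKO-labelled against 600.0 control) and 3.83-fold higher (1915 cKO-labelled against 499.9 control).

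The difference ran through the mitotic machinery. Among spindle and kinetochore genes, Nuf2 of the NDC80 complex was 6.74-fold higher (706 cKO-labelled against 105 control), the depolymerase Kif2c 5.03-fold higher (572 cKO-labelled against 114 control) and the spindle motor Kif11 4.19-fold higher (509 cKO-labelled against 121 control). Of the chromosomal passenger complex, which corrects attachment errors, Aurkb was 4.74-fold higher (508 cKO-labelled against 107 control), Birc5 (survivin) 6.30-fold higher (2981 cKO-labelled against 473 control), Cdca8 4.07-fold higher (2430.3 cKO-labelled against 597 control) and Incenp 1.92-fold higher (5022 cKO-labelled against 2614 control). The checkpoint genes Bub1b, Ttk and Mad2l1 were 4.31-fold, 4.31-fold and 3.01-fold higher. Bub1 was 4.83-fold higher by its brighter probe set, while a further probe set stood at 51.6 on the cKO-labelled array and 30.6 on the control array. Hmmr, a spindle assembly factor, was 6.87-fold higher (875 cKO-labelled against 127 control), with all 4 of its other measured probe sets higher. Cytokinesis genes followed, with Ect2 4.44-fold higher and Anln 3.29-fold higher. Mki67, the proliferation marker, gave 5261 on the cKO-labelled array and 1259.9 on the control array, 4.18-fold higher.

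S phase genes were also higher, by less. All 35 measured genes of replication licensing and DNA synthesis were higher by the probe set used for each, 13 (37.1%, against 5.62% of all measured genes) at least 2-fold, with a median log2 fold of 0.71. Rrm2, the limiting subunit of ribonucleotide reductase, gave 6528 on the cKO-labelled array and 1029 on the control array, 6.35-fold higher, whereas its partner Rrm1 was 1.92-fold higher (1724 cKO-labelled against 900.2 control). Cdc6, which loads the replicative helicase, was 3.40-fold higher (653 cKO-labelled against 192 control), and the helicase genes themselves differed little, from 1.28-fold higher for Mcm6 (5662 cKO-labelled against 4418 control) to 1.86-fold higher for Mcm5 (6957 cKO-labelled against 3746 control). Mcm2 stood at 0.53 by the probe set used and at -0.38 as the mean of its 2 probe sets. The sliding clamp Pcna gave 25967 on the cKO-labelled array and 13888 on the control array. Cyclin genes of the G1 to S transition were 1.55-fold (Ccne1) and 2.49-fold higher (Ccne2), and the transcription factors E2f1 and E2f8 1.03-fold and 3.58-fold higher.

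Inhibitors of the cycle were mostly higher too. Of 19 inhibitors and quiescence factors 15 were higher, 1 at least 2-fold (5.26%, near the background), and 4 lower. Cdkn1b (p27), which holds resting T cells in G0, gave 3711 on the cKO-labelled array and 2246 on the control array, 1.65-fold higher, and the INK4 family genes Cdkn2c and Cdkn2d were 1.82-fold and 1.88-fold higher. Cdkn1a (p21) was 2.53-fold higher (165 cKO-labelled against 65.4 control), but its other probe set went the opposite way. The 4 lower genes were Foxo1 (3006 cKO-labelled against 4963 control), Foxo3, Rbl2 and Btg2, the last with a further probe set at least 2-fold higher. Cdkn3, a phosphatase of cyclin-dependent kinases that peaks in mitosis, was 6.94-fold higher (720.1 cKO-labelled against 104 control).

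Promoters of these genes are printed because mitotic and S phase genes are known to be controlled through short shared motifs. The cell cycle genes homology region, TTTGAA, is bound by the DREAM and B-Myb MuvB complexes, which repress mitotic genes in resting cells and activate them in G2, and the CCAAT box is bound by NF-Y. The 3 promoters that follow are those of the genes with the highest folds that hold both motifs in a set of 15 well-studied cell cycle genes, and the fourth is that of Birc5, which was among the highest in fold and holds neither in this window. Each runs from 250 bases before to 50 after the start in RefSeq, on GRCm38.p6, with capitals marking the TTTGAA, the CCAAT box and the E2F motifs named below, on either strand, and in none of the 4 do different motifs overlap.
Cdk1 promoter, chr10:69352863-69353162 on the minus strand: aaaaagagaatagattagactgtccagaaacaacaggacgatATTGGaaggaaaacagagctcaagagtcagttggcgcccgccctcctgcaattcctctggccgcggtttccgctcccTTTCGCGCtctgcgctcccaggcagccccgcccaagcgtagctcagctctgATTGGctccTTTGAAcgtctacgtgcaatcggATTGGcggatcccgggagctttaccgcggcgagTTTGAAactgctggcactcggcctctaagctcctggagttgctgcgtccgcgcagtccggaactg
Ube2c promoter, chr2:164769679-164769978 on the plus strand: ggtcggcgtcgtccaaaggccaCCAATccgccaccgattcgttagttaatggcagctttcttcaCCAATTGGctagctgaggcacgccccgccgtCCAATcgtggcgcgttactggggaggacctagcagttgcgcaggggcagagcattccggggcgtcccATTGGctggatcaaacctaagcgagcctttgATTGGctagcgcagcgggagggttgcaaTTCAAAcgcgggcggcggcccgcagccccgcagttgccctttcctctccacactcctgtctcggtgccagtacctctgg
Mki67 promoter, chr7:135716330-135716629 on the minus strand: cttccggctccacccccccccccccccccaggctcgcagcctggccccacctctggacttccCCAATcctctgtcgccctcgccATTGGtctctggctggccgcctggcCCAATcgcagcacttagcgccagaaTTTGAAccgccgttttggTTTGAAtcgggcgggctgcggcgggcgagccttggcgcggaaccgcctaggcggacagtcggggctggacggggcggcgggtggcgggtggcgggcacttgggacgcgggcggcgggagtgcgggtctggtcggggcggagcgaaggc
Birc5 promoter, chr11:117848987-117849286 on the plus strand: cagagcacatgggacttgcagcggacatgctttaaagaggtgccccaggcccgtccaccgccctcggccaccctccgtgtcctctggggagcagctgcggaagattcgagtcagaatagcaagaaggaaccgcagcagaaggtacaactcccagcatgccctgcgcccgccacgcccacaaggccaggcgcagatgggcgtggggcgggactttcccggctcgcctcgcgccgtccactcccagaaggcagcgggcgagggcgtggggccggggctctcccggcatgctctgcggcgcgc

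In the Cdk1 window 2 copies of TTTGAA begin 71 and 15 bases before the start, with 3 CCAAT boxes and 1 E2F motif. Ube2c, the conjugating enzyme of the anaphase-promoting complex, was 4.55-fold higher and holds 1 TTTGAA and 6 CCAAT boxes, and Mki67 holds 2 and 3. Over all mitosis genes with a promoter in the table, 27 of 37 (73.0%) hold TTTGAA on either strand, against 12.2% of 11440 promoters of measured genes and 18.1% of 27025 promoters in all. CCAAT was in 73.0% of them, against 38.1% of measured and 37.9% of all promoters, and both motifs in 64.9%, against 4.85% and 7.12%. Among S phase genes TTTGAA was in 13.3% of 30 promoters, and an E2F motif (TTTCCCGC, TTTCGCGC, TTTGCCGC or TTTGGCGC, either strand) in 33.3%, against 3.85% of measured and 2.32% of all promoters. A match is a description of these letters, not of binding in these cells.

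A set of 3 granzyme genes was much higher on the cKO-labelled array. Gzma, the tryptase of cytotoxic granules, gave 18470.5 on the cKO-labelled array and 479.7 on the control array, 38.5-fold higher, which was the largest difference of any gene measured on both arrays. Gzmk, its neighbour in the genome, gave 6215 on the cKO-labelled array and 655 on the control array, 9.49-fold higher, and Gzmb, the main caspase-activating granzyme, gave 2547 on the cKO-labelled array and 653 on the control array, 3.90-fold higher. These 3 were the members past 2-fold among 13 measured granule genes (23.1%, against 5.62% of all measured genes), of which 10 were higher and 3 lower, with a median of 0.27. The pore-forming Prf1 was 1.39-fold lower (235 cKO-labelled against 327 control), the death ligand Fasl 1.46-fold lower (1433 cKO-labelled against 2094 control), and Srgn, the proteoglycan that packs granules, gave 41790.4 on the cKO-labelled array and 39838 on the control array. Nkg7, a granule membrane protein, was 1.58-fold higher (10514 cKO-labelled against 6636 control). The Gzma probe set is of a type that can read more than 1 transcript, and no other Gzma probe set was available.

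The migration receptors S1pr5 and Cx3cr1 were also much higher. S1pr5, which guides effector and NK cells out of tissue, read 1450.5 on the cKO-labelled array and 43.3, below the floor, on the control array, at least 30.5-fold higher. Cx3cr1, the fractalkine receptor of terminal effector cells, gave 1290.4 on the cKO-labelled array and 131 on the control array, 9.84-fold higher, with its other measured probe set higher too. Ccr4 was 2.02-fold higher (343 cKO-labelled against 169.6 control), while Gpr15 and Gpr183, receptors for homing to the colon and to follicle borders, were 4.33-fold (111 cKO-labelled against 479.7 control) and 2.09-fold lower (1524 cKO-labelled against 3182 control). Of 22 trafficking receptors 14 were higher, 3 of them (13.6%, against 5.62%) at least 2-fold, and 8 lower, 2 of them (9.09%, against 3.64%) at least 2-fold, so the list as a whole was mixed. Ccr7, which leads cells to lymph nodes, was 1.59-fold lower (1482 cKO-labelled against 2353 control), Cxcr3 gave 27796 on the cKO-labelled array and 21121 on the control array, and Cxcr6 gave 14481 on the cKO-labelled array and 16966 on the control array.

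NK receptors split in 2 directions. Klrg1, a marker of terminally differentiated effector cells, was 1.95-fold higher (6319.5 cKO-labelled against 3241 control), and Klra5 of the Ly49 family was 3.31-fold higher (242 cKO-labelled against 73.2 control). The NKG2 genes Klrk1 and Klrc1 were 2.34-fold (905 cKO-labelled against 2116 control) and 3.19-fold lower (335 cKO-labelled against 1070.0 control), and the adaptor Tyrobp 2.35-fold lower (2679.9 cKO-labelled against 6299 control). In the list 10 of 17 were higher, 2 past 2-fold (11.8%, against 5.62%), and 7 lower, 3 past 2-fold (17.6%, against 3.64%). The NK cell markers Ncr1 and Eomes were dim on both arrays, Ncr1 at 89.3 on the cKO-labelled array and 75.8 on the control array and Eomes at 176 on the cKO-labelled array and 262 on the control array.

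**Figure D3:**
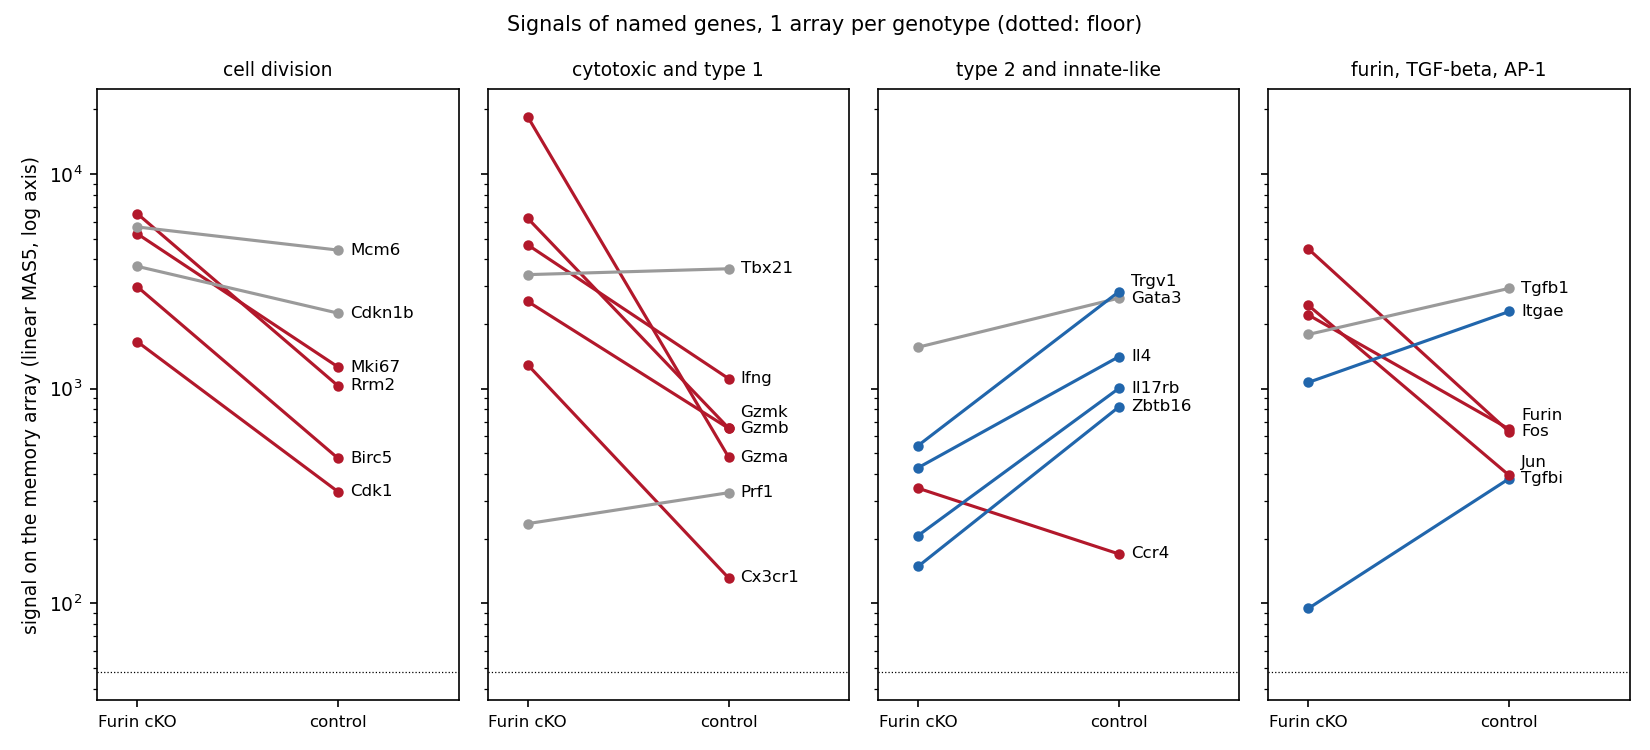
Signals of 25 named genes on the 2 memory arrays, cKO-labelled left and control right, on a log axis, in 4 panels by role, with the floor dotted. Red lines are at least 2-fold higher and blue lines at least 2-fold lower on the cKO-labelled array, such as Gzma at 18470.5 against 479.7 on the control array.

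Type 1 effector genes were partly higher. Ifng, the defining type 1 cytokine, gave 4675 on the cKO-labelled array and 1114 on the control array, 4.20-fold higher. Il18r1 and Il18rap, which together form the IL-18 receptor, were 2.53-fold (19594 cKO-labelled against 7743 control) and 2.18-fold higher (4719 cKO-labelled against 2168 control). The chemokines Ccl3, Ccl4 and Ccl5 were 2.71-fold, 1.82-fold and 1.91-fold higher, the last reading 34172 cKO-labelled against 17869 control. Their regulators differed less. Tbx21 (T-bet) gave 3396 on the cKO-labelled array and 3616 on the control array, Stat4 gave 4727 on the cKO-labelled array and 5018 on the control array and Runx3 gave 1212 on the cKO-labelled array and 1132 on the control array. In all 9 of 16 members were higher, 4 by 2-fold or more against a background of 5.62%, and 7 lower, 0 at least 2-fold. Xcl1, a chemokine for cross-presenting dendritic cells, was 1.75-fold lower (939.9 cKO-labelled against 1642 control).

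Type 2 effector genes were mostly lower. Il4, the defining type 2 cytokine, gave 428 on the cKO-labelled array and 1408 on the control array, 3.29-fold lower. Il17rb, the receptor subunit for IL-25, gave 207 on the cKO-labelled array and 1002 on the control array, 4.85-fold lower. The master regulator Gata3 was 1.69-fold lower (1559 cKO-labelled against 2640.2 control), Stat6, which carries the IL-4 signal, 1.64-fold lower (2914 cKO-labelled against 4766 control), and Epas1 1.92-fold lower (333 cKO-labelled against 638 control). Lower were 7 of the 11 measured members, with 2 past 2-fold (18.2%, against 3.64%), and higher were 4, with 1 past 2-fold (Ccr4). The median was -0.60. The cytokine genes Il5, Il9 and Il13 were below the floor on both arrays.

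Among genes of innate-like T cells 3 were much lower. Zbtb16 encodes PLZF, the transcription factor of NKT cells and related innate-like cells, and gave 148 on the cKO-labelled array and 822 on the control array, 5.54-fold lower, with both other measured probe sets lower. Trgv1, a variable segment of the gamma chain of the gamma delta receptor, gave 543 on the cKO-labelled array and 2828 on the control array, 5.21-fold lower. The Trgv1 probe set, like that of Gzma, is of a type that can read more than 1 transcript, and no other was measured. Sox13, a factor of gamma delta T cells, was at least 1.50-fold lower, near the floor. The gamma delta gene 5830411N06Rik (Scart2) went the other way, 1.75-fold higher (399 cKO-labelled against 228 control). With Il17rb, which NKT cells also express, 3 of 14 members (21.4%, against 3.64% of all measured genes) were at least 2-fold lower and 0 higher, while Slamf1 (3955 cKO-labelled against 2202 control) and Egr2 (1616 cKO-labelled against 1363 control), which NKT development needs, were higher. Cd1d1 gave 1371 on the cKO-labelled array and 1617 on the control array.

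Follicular helper genes were lower on balance. Bcl6, their master regulator, was 1.68-fold lower (577 cKO-labelled against 968 control) by the probe set used. Its other probe set was higher, at 172.8 on the cKO-labelled array and 127.4 on the control array. The follicle-homing receptor Cxcr5 was 1.66-fold lower (1549 cKO-labelled against 2577 control) and Ascl2, which induces Cxcr5, 3.51-fold lower (67.1 cKO-labelled against 235 control). The IL-6 receptor genes Il6ra and Il6st were 2.06-fold and 1.81-fold lower. The other Il6ra probe set was slightly higher, and 1 of the 3 other measured Il6st probe sets was higher. The cytokine Il21 went the other way, 1.87-fold higher (868 cKO-labelled against 466 control), with its other measured probe set lower. Of 17 measured members 11 were lower, 2 at least 2-fold (11.8%, against 3.64%), and 6 higher, 0 at least 2-fold. Type 17 genes had 4 of 8 on each side, 0 past 2-fold. Rora gave 3652 on the cKO-labelled array and 3701 on the control array, Ccr6 was 1.70-fold lower, and Il17a was dim at 131 on the cKO-labelled array and 134 on the control array.

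The substrates of furin and its relatives form the next group. Among the other proprotein convertases, Pcsk7, which can share substrates with furin, gave 959 on the cKO-labelled array and 1075 on the control array. Mbtps1, the site 1 protease, was 1.50-fold lower (1732 cKO-labelled against 2604 control), with both its other measured probe sets higher. Pcsk4 and Pcsk6 were close to equal and dim, Pcsk5 was below the floor on both, and Pcsk1 was at least 2.39-fold higher. Of 22 measured precursor genes 7 were higher, 1 at least 2-fold (4.55%, near the background of 5.62%), and 15 lower, 3 at least 2-fold (13.6%, against 3.64%). Tgfb1, the best known T cell substrate, gave 1788 on the cKO-labelled array and 2932 on the control array, 1.64-fold lower, and its other measured probe set was lower too. The integrin chain gene Itgae (CD103) was 2.14-fold lower (1069 cKO-labelled against 2287 control), Tnfsf13b (BAFF) 2.18-fold lower (103 cKO-labelled against 224 control) and Igf1r 2.08-fold lower (549 cKO-labelled against 1142 control), the last with 2 of its 4 other measured probe sets higher. Notch1 was 1.41-fold lower (2625 cKO-labelled against 3703 control), with its other measured probe set higher. The metalloproteases Adam10 and Adam17 and the integrin chain Itga4 were within 1.2-fold. Sorl1, a sorting receptor, was 1.66-fold higher (4287 cKO-labelled against 2588 control). These are transcript levels and say nothing of cleavage.

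Genes of the TGF-beta response list were lower with few exceptions, by the probe set used for each. Of 13 measured, 12 were lower, 2 of them by 2-fold or more (15.4%, against 3.64% of all measured genes), and 1 was at least 2-fold higher (7.69%, near the background of 5.62%), with a median log2 fold of -0.61. Tgfbi, a secreted matrix protein named for its induction, gave 94.6 on the cKO-labelled array and 381 on the control array, 4.03-fold lower. Nt5e (CD73), which makes adenosine, was 1.96-fold lower (1868 cKO-labelled against 3669.9 control) and Tgif1 1.73-fold lower. The feedback inhibitors Pmepa1, Ldlrad4 and Smad7 were 1.53-fold, 1.89-fold and 1.29-fold lower, though the other probe set of Smad7 was higher. For Nt5e and Ldlrad4, 1 of 2 other measured probe sets each was higher, and for Id2 both others were higher. Rgs16, a brake on chemokine receptors, was the exception, 2.85-fold higher (697 cKO-labelled against 244 control). Itgae belongs to this list, the precursor list and the regulatory list. The receptors stood closer to 0: Tgfbr1 was 1.40-fold lower (1704 cKO-labelled against 2385 control), Tgfbr2 gave 9346 on the cKO-labelled array and 9381 on the control array, and the mediators Smad2, Smad3 and Smad4 were 1.04-fold lower, 1.22-fold lower and 1.11-fold higher. The other probe sets of Tgfbr1, Tgfbr2 and Smad2, 1 each, went upward. Ltbp3 and Ltbp4, which tether latent TGF-beta to matrix, were 2.24-fold (113 cKO-labelled against 50.4 control) and at least 2.09-fold higher, both dim.

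Regulatory T cell genes were lower by small steps. Of 21 measured, 19 were lower, 1 at least 2-fold (Itgae; 4.76%, near the background of 3.64%), and 2 higher (Tnfrsf4 and Klrg1), with a median of -0.31. Il2ra, the high-affinity chain of the IL-2 receptor, was 1.90-fold lower (627 cKO-labelled against 1190.3 control), although its other probe set read 286.1 on the cKO-labelled array and 316.7 on the control array. Nrp1, a marker of thymus-derived regulatory cells that was also placed in the precursor list, was 1.69-fold lower (1835 cKO-labelled against 3110.2 control). Ikzf4 was 1.58-fold lower and Gpr83 1.59-fold lower. Ctla4 and Ikzf2 (Helios) were 1.14-fold and 1.15-fold lower. Foxp3 gave 1116 on the cKO-labelled array and 1358 on the control array. Its single probe set read 33.8 and 50.4 on the cKO-labelled and control arrays of sorted FoxP3-positive regulatory cells, below and just above the floor. Over the whole list the signals summed to 115682 and 118268 on those cKO-labelled and control arrays, against 58094 and 66665 on the cKO-labelled and control memory arrays. Inhibitory receptors overlap this list, and 14 of 15 were lower, 0 at least 2-fold. Pdcd1 (PD-1) gave 1396 on the cKO-labelled array and 1935 on the control array, Btla 4864 on the cKO-labelled array and 7373 on the control array and Lag3 647 on the cKO-labelled array and 828 on the control array.

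**Figure D4:**
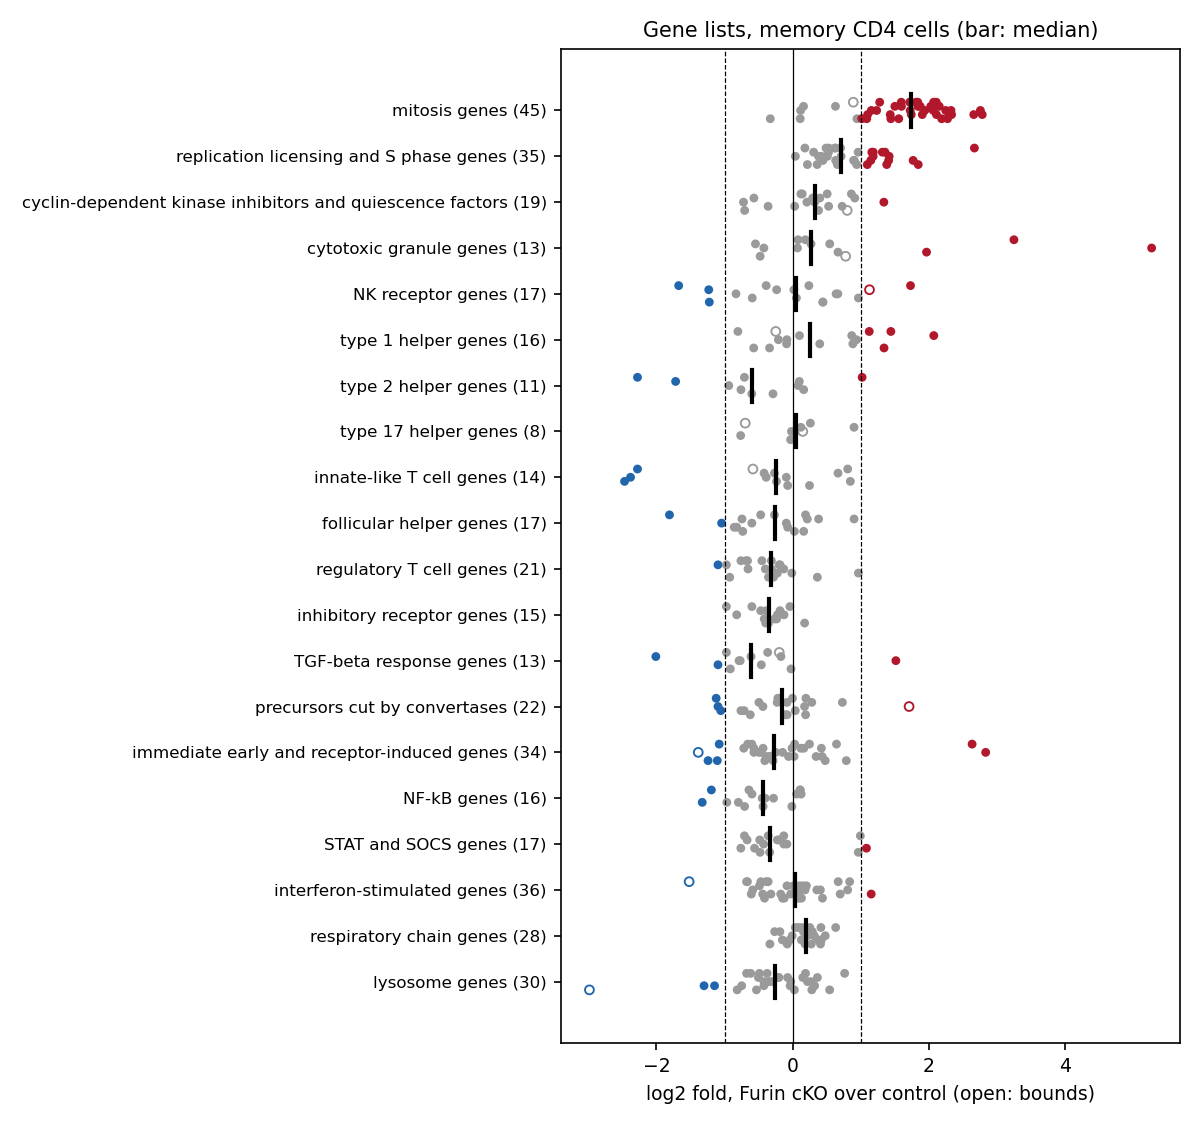
Log2 fold of each measured member of 20 gene lists, cKO-labelled over control memory array, with the number measured in brackets. Filled points were at or above the floor on both arrays, open points are bounds, red and blue mark 2-fold higher and lower, and black bars are medians, which run from 1.74 for mitosis genes to -0.61 for TGF-beta response genes.

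The AP-1 genes Fos and Jun stood far above the rest of the immediate early group. Fos gave 4469 on the cKO-labelled array and 628 on the control array, 7.12-fold higher, and Jun gave 2441 on the cKO-labelled array and 394 on the control array, 6.20-fold higher, with its second probe set at 418.1 on the cKO-labelled array and 95.0 on the control array. Their partners did not match them. Junb gave 1578 on the cKO-labelled array and 1589 on the control array, Jund gave 4830.4 on the cKO-labelled array and 5359 on the control array, and Fosb was dim at 68.4 on the cKO-labelled array and 71.4 on the control array. Fosl2 was 2.16-fold lower (76.1 cKO-labelled against 164 control), but its other probe set was higher and the 2-fold difference was lost as the mean of both. Egr1, induced by the same MAP kinase route, was 1.33-fold lower (3404 cKO-labelled against 4522 control), and Nr4a1, a reporter of T cell receptor signals, 1.65-fold lower (892 cKO-labelled against 1469 control). Of 34 measured genes of this group 13 were higher, 2 at or past 2-fold (5.88%, near the background of 5.62%), and 21 lower, 4 at least 2-fold (11.8%, against 3.64%), the last being Fosl2, Irf8, Rgs2 and Nr4a2. For Nr4a2 the probe sets disagreed, since 3 of the other 4 measured were higher. Dusp1, another stress-induced early gene, was 1.39-fold higher (2338 cKO-labelled against 1681 control), and Hspa1a and Hspa1b, the heat-inducible chaperones, were 4.12-fold (1845 cKO-labelled against 447 control) and 2.34-fold higher (11686 cKO-labelled against 4993 control), while 10 other chaperone genes stayed within 2-fold. Gadd45g, induced by cytokines and stress, was 7.83-fold higher (1960.3 cKO-labelled against 250.2 control).

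NF-kB genes were lower. Nfkb2 and Relb, the pair of the alternative pathway, were 2.29-fold (735 cKO-labelled against 1682 control) and 1.96-fold lower (1011 cKO-labelled against 1978 control), and Cd83, a target shared with mature dendritic cells, was 2.51-fold lower (1546 cKO-labelled against 3883 control). A second Nfkb2 probe set read 428.0 on the cKO-labelled array and 482.0 on the control array. Of 16 members 12 were lower, 2 at least 2-fold (12.5%, against 3.64%), and the median was -0.44. The inhibitors Nfkbid, Nfkbie and Nfkbiz were 1.74-fold, 1.63-fold and 1.56-fold lower, whereas Nfkbia gave 30099 on the cKO-labelled array and 28936 on the control array. On the same arrays the conventional dendritic cell list, which shares Cd83, and the plasmacytoid list had medians of -0.82 and -0.67.

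Cytokine genes went both ways. Il2, the T cell growth factor, gave 1465 on the cKO-labelled array and 424 on the control array, 3.45-fold higher. Tnf was 1.27-fold lower (492 cKO-labelled against 623 control), Lta 1.38-fold lower, Tnfsf11 (RANKL) 1.98-fold lower (1028 cKO-labelled against 2032 control) and Tnfsf14 (LIGHT) 1.97-fold lower (1179 cKO-labelled against 2323 control). Of 20 measured 8 were higher and 12 lower, with 2 (Il2 and Ifng, 10.0%) and 1 (Il4, 5.00%) past 2-fold, against 5.62% and 3.64% of all measured genes. Among receptors, Il7r, which sustains memory cells, gave 21717 on the cKO-labelled array and 18389 on the control array and Il2rb gave 4436 on the cKO-labelled array and 5515 on the control array. Csf2rb, the shared chain for IL-3, IL-5 and GM-CSF, which dendritic and myeloid cells express, was 3.25-fold lower (588 cKO-labelled against 1914 control). Ifngr1 was 1.56-fold higher (3687 cKO-labelled against 2358 control). The signalling genes downstream were lower in 14 of 17 cases, 0 at least 2-fold. Among them were Stat5a (1.70-fold lower), Jak3 (1.48-fold lower) and Socs1 (1.59-fold lower), though the other measured Stat5a probe set was higher. The 3 higher genes were Socs3, 2.12-fold higher (3284 cKO-labelled against 1552 control), and the kinases Pim1 and Pim2, 1.95-fold and 1.99-fold higher. Of 14 TNF receptor family genes 10 were lower and 4 higher. Past 2-fold were 2 each way (14.3% higher, against 5.62%, and 14.3% lower, against 3.64%). On each side 1 of these was a bound, Tnfrsf14 higher and Ltbr lower. Cd27, lost as memory cells differentiate, was 2.04-fold lower (2099.9 cKO-labelled against 4278 control), and Tnfrsf13c, the BAFF receptor of B cells, 3.11-fold higher (375 cKO-labelled against 120.5 control).

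Genes of naive and central memory cells showed no common direction, with 7 higher and 8 lower of 15 and a median of -0.01. Klf2, which maintains the recirculating state, was 1.42-fold higher (6029 cKO-labelled against 4249 control), Bach2, which restrains effector genes, 1.69-fold lower (723 cKO-labelled against 1222 control), Id3 1.71-fold lower and Lef1 1.18-fold lower. For Bach2 1 of 2 other measured probe sets was higher, and for Lef1 the only other one was. Treml2 was 2.84-fold higher (742 cKO-labelled against 262 control) and Igfbp4 2.15-fold higher (1084 cKO-labelled against 506 control). Adhesion genes had 14 of 29 higher. Among them the galectin, annexin and filament genes were higher, Lgals1 1.82-fold higher (50984 cKO-labelled against 27993 control), Anxa2 1.89-fold higher (4986 cKO-labelled against 2632 control), Vim 1.80-fold higher (18567 cKO-labelled against 10295 control) and Lgals3 2.17-fold higher (2014 cKO-labelled against 927 control), while Anxa1 was 1.33-fold lower (836 cKO-labelled against 1113 control). The other measured Anxa2 probe set was lower, at 124.1 on the cKO-labelled array and 170.5 on the control array. The integrins Itgb1 and Itgb3 were 1.61-fold (2916 cKO-labelled against 4698 control) and 2.03-fold lower (758 cKO-labelled against 1536 control). The other Itgb3 probe set was higher, as was 1 of 3 other measured Itgb1 probe sets. The S100 genes S100a4 and S100a6, which effector T cells express, were 1.33-fold (17493 cKO-labelled against 13169 control) and 1.44-fold higher (7003 cKO-labelled against 4860.5 control), far less than the granulocyte genes S100a8 and S100a9.

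Metabolic lists differed little. Of 28 respiratory chain genes 21 were higher and 7 lower, 0 at least 2-fold, with a median of 0.20. Cox5a differed most, 1.55-fold higher (17699 cKO-labelled against 11439 control). Glycolysis genes had 10 of 16 higher, 0 at least 2-fold either way, with Ldha 1.33-fold higher and Tpi1 1.50-fold higher. Cholesterol synthesis enzymes had a median of 0.03 over 24 genes. The 2 genes at least 2-fold lower in that list were exporters, Abca1 (708 cKO-labelled against 1540.4 control) and Abcg1 (1182 cKO-labelled against 2654 control), and the desaturase Scd1 was 2.16-fold higher (310.0 cKO-labelled against 143 control). Ribosome biogenesis had 13 of 27 higher, with Nop58 alone past 2-fold, 2.71-fold higher (1295 cKO-labelled against 479 control). Unfolded protein response genes had 11 of 25 higher and 0 past 2-fold. Herpud1, which sits in the degradation complex of the endoplasmic reticulum, was 1.84-fold lower (1538 cKO-labelled against 2828 control), and Calr 1.52-fold lower. BCL2 family genes had 6 of 12 on each side, with the proapoptotic Pmaip1 (NOXA) 2.12-fold higher (980.0 cKO-labelled against 463 control).

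Lysosome genes were lower in 20 of 30 cases, 3 of them at least 2-fold (10.0%, against 3.64%), and higher in 10, 0 at least 2-fold. Tfeb, the transcription factor of lysosome biogenesis, read 37.4, below the floor, on the cKO-labelled array and 377 on the control array, at least 7.91-fold lower. Its relative Tfe3 was 1.68-fold lower (749.9 cKO-labelled against 1260.5 control). Ctsh and Cd68, which myeloid and dendritic cells express, were 2.47-fold (1152 cKO-labelled against 2843 control) and 2.22-fold lower (543 cKO-labelled against 1204 control), while Lamp1 was 1.34-fold lower and Npc2 1.69-fold higher (18084 cKO-labelled against 10670.2 control).

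Interferon-stimulated genes had no common direction, with 19 of 36 higher, 17 lower, 1 past 2-fold each way and a median of 0.03. The guanylate-binding protein genes Gbp2, Gbp3 and Gbp7, of cell-autonomous immunity, were 1.75-fold higher (5604 cKO-labelled against 3206 control), 2.22-fold (2539 cKO-labelled against 1143 control) and 1.59-fold higher (7993 cKO-labelled against 5036 control). Gbp6 of the same family was 1.11-fold lower (3044 cKO-labelled against 3376 control). The antiviral genes were mixed, with Rsad2 1.53-fold lower (962 cKO-labelled against 1468 control), Oasl2 1.60-fold lower, Irf7 1.38-fold lower, Oas1a and Mx1 within 1.1-fold, and Bst2, a plasmacytoid dendritic cell marker too, 1.59-fold lower (2544 cKO-labelled against 4035 control).

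Some of the largest single differences lay outside the lists. Esm1, a secreted proteoglycan of endothelium, gave 662 on the cKO-labelled array and 49.6 on the control array, 13.4-fold higher, just above the floor on the control array. Kcnj8, a potassium channel, was 9.34-fold higher (1023 cKO-labelled against 109.6 control), and Nrp2, a semaphorin receptor, 7.11-fold higher (408 cKO-labelled against 57.3 control). The largest bounds upward after S1pr5 were Gh, Ska1, Ermn, Depdc1b, Car5b, Mt3 and Gfra2, of which the kinetochore gene Ska1 and Depdc1b are themselves genes of dividing cells. Ska1 was at least 7.20-fold higher and Depdc1b at least 6.72-fold higher. The other probe set of Gh and all 3 others of Gfra2 went the opposite way.

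Downward, outside the lists, Ccdc102a and Qpct were among the largest differences above the floor, Ccdc102a 7.38-fold lower (80.6 cKO-labelled against 595 control) and Qpct, which forms pyroglutamate at protein ends, 5.24-fold lower (97.3 cKO-labelled against 509.7 control). Chdh, a choline dehydrogenase, was 4.96-fold lower (272 cKO-labelled against 1350.5 control). Alas2, an erythroid heme enzyme, was 4.26-fold lower (110.5 cKO-labelled against 471 control), and Cd209d, a lectin of the dendritic cell family, 4.19-fold lower (90.8 cKO-labelled against 381 control). Cysrt1, Bcas1, Nrgn, Trpm6, Emid1 and Actg2 were 4.15-fold to 5.16-fold lower. A probe set of each of Ccdc102a, Cysrt1, Bcas1 and Trpm6 went the opposite way. The largest bounds downward were Tmem273 (at least 8.56-fold lower), Tfeb of the lysosome list, Ppp2r3d (at least 7.84-fold lower), Slc15a2, Haao, Hs3st1, Gsta4 and Guca1b. Over all 1318 genes past 2-fold, 471 had other measured probe sets, and for 165 of these at least 1 went the opposite way.

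The memory pair had more genes past 2-fold than the other array pairs. Activated cells had 42 higher and 40 lower of 10756, and regulatory cells 458 higher and 309 lower of 14587. The pairs share no array, and with 1 array a side no difference between them was tested. The median of mitosis genes was 1.74 in memory cells, 0.00 in activated cells and 0.69 in regulatory cells, where 16 of 44 were at least 2-fold higher. Type 1 genes had medians of 0.25, 0.38 and -0.17 in the same order. Gzma had a log2 fold of 5.27 in memory cells and 0.43 in regulatory cells. TGF-beta response genes had medians of -0.61 in memory, 0.03 in activated and -0.03 in regulatory cells. Conventional dendritic cell markers stood at -0.82, 0.00 and 0.03, and their summed signal on the regulatory arrays was 13953 for the cKO label and 14340.4 for the control. Granulocyte markers were higher in the regulatory pair too, with a median of 0.43 there and 0.73 in memory cells. In regulatory cells 5 of 14 were at least 2-fold higher and 1 lower, with log2 folds of 1.22 for S100a8 and 1.13 for S100a9. Only 1 was measured in activated cells.

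**Figure D5:**
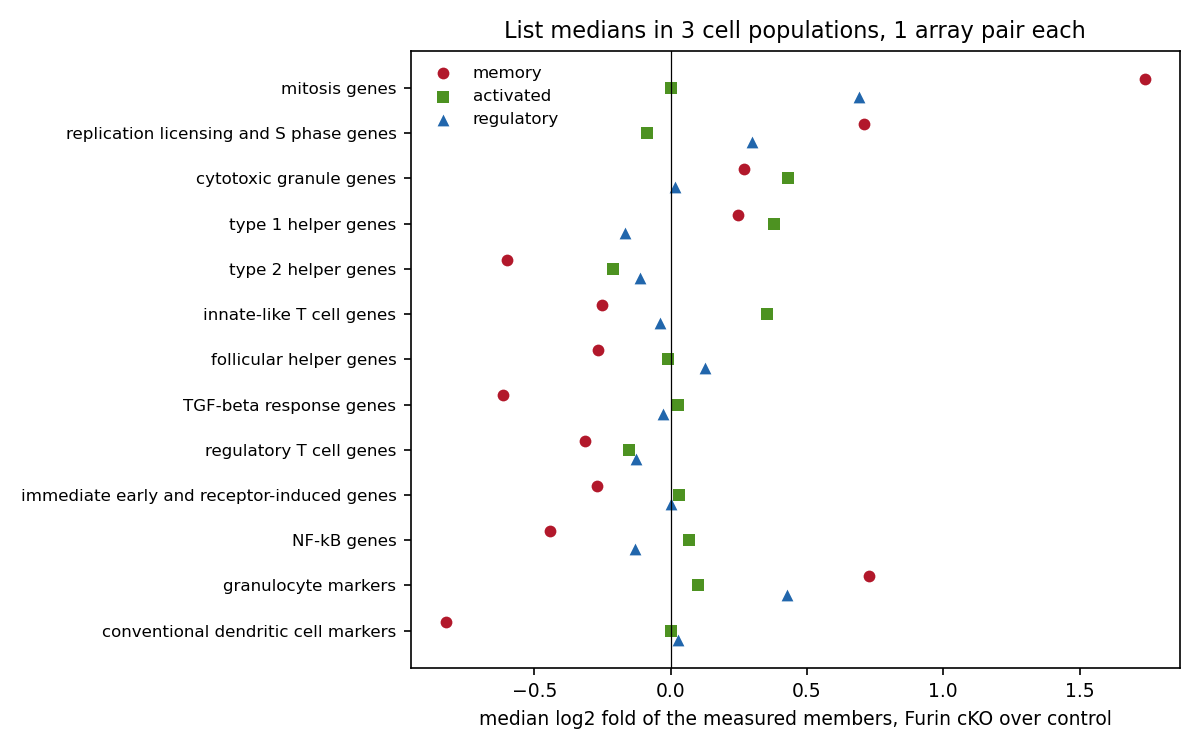
Median log2 fold of the measured members of 13 lists, cKO-labelled over control, in memory (circles), activated (squares) and regulatory cells (triangles), 1 array pair each. Mitosis genes lie at 1.74 in memory cells and conventional dendritic cell markers at -0.82, with the other pairs closer to 0.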

How the data were processed

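Expression was read on Affymetrix 3' arrays from biotin-labelled RNA, per the labels' protocols. The deposited values are intensities on a linear scale, produced by MAS5 according to the submitters' processing notes. Its version and settings remain not given in the sources used here. Each array had a trimmed mean of 500 (2% trimmed at each end), so scaling had been done before deposit and dim signals keep their noise.

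Of 45101 probe sets, 64 controls were set aside and 34945 carry 1 gene symbol in the platform annotation. Entrez identifiers of 34741 matched a RefSeq table of GRCm38.p6, used for names and promoters. Signals were raised to a floor of 47.6 and each gene was read by 1 probe set, the one with the highest log2 signal averaged over all 6 arrays. The fold threshold was 2. The calculation was checked on simulated data.

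With 1 array a side no test was run and no p-value is given; the number of arrays limits the precision, and nothing is known of the spread between animals. Genes named are Furin; the 15 largest folds each way, both arrays at the floor or above and the brighter at 144.8 or more (predicted and clone names aside); the 8 largest bounds each way; and members of 50 lists of 876 symbols, 797 of them with a probe set. Members and lists were chosen with earlier results of these data known. Alternatives were 3 floors, 3 normalizations (quantile, cyclic loess with limma 3.58.1 in R 4.3.3) and 3 choices of probe set. Python 3.11.15 with pandas 2.3.3 did the rest.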

Additional observations from a re-analysis of the deposited data

Results flagged for a closer look

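For 7 genes the memory pair and another pair moved in opposite directions, each by at least 2-fold on its 1 array a side, so the difference between populations was not tested. Fos had a log2 fold of 2.83 in memory cells and -1.58 in regulatory cells, and Jun had 2.63 and -1.96. The metallothionein gene Mt3 stood at 2.57 in memory cells, as a bound, and -1.76 in regulatory cells, and the IgA heavy chain gene Igha at 2.44 and -1.15. In the other direction, the NK receptor gene Klrk1 stood at -1.22 in memory cells and 1.30 in regulatory cells, and Spib, a factor of B cells and plasmacytoid dendritic cells, at -1.41 and 1.02. Scd1, a fatty acid desaturase, had 1.11 in memory cells and -1.16 in activated cells. The search covered the ranked genes and the 797 list members with a probe set, many of them not named in the text. These were chosen with values known, and genes outside them were not searched.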

How the results depend on the processing

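Over 821 gene and list results under 9 alternatives, 7171 values could be computed, of which 6940 kept within 0.474 log2 of the reported value, the scaled median absolute deviation of all genes, 225 moved by more and 6 reversed, which counts sign changes of genes past 2-fold and of lists with a median beyond 0.25. Counted over every gene and list, however small its value, 237 values changed sign. The counts depended most on the floor. At least 2-fold higher were 2183 genes with the floor at the pooled 20th percentile and 259 at the 60th, and lower were 1526 and 224, since dim genes enter or leave. The granulocyte median was 1.38 with the floor at the 20th percentile, 2.03 with the floor of each array and 2.05 with quantile normalization of the 6 arrays, against 0.73 as reported. Without probe sets named _x_at, _s_at or _a_at, medians reversed to -0.13 for sex-linked genes, 0.25 for CD8 and gamma delta T cell markers and -0.19 for stromal and epithelial markers, and Cysrt1 to 0.89 and Spc25 to -0.16. Nr4a2 became 1.10 with the probe set brightest over the memory arrays. The causes were not tested. The mitosis median ran from 1.38 to 1.90 and the TGF-beta response median from -0.69 to -0.41 over the 9. Gzma had no value without probe sets of those names. No paired analysis was possible because each group holds 1 array. The number of arrays limits precision, and 2-fold differences were most frequent where the brighter array read 144.8 to 500.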

Other observations

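Some gene families, picked after their values were seen, leaned 1 way, and their values are given as a description. They overlap the lists in part. The brightest immunoglobulin gene was Igha of the plasma cell list, and the brightest proteasome gene was Psmb8 of the interferon list. For comparison, 5.62% of all measured genes were past 2-fold upward and 3.64% downward. Of 13 measured immunoglobulin genes 11 were higher on the cKO-labelled array, 8 at least 2-fold, and 0 lower by 2-fold. Of 25 olfactory and vomeronasal receptor genes, which memory cells are not known to express, 18 were higher, 8 at least 2-fold, and 0 lower by 2-fold, with no signal above 292.7. Of 76 mitochondrial ribosomal protein genes 54 were higher, and of 48 proteasome genes 35, 0 past 2-fold in either family. Zinc finger genes named Zfp, 295 of them, had 126 higher and 169 lower, with 6 and 13 past 2-fold.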
